A study of Homo sapiens with 8 samples.

Results

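The stress keratins examined here are 6 genes, KRT6A, KRT6B, KRT6C, KRT16, KRT17 and KRT75, taken by name from a table of 63241 gene rows in which 55 rows are keratin genes. All 6 were found by Ensembl identifier without its version, all 6 passed the filter on low counts, and the 3 KRT6 copies are also given as their sum. RNA was sequenced from 8 libraries labelled HSC3, a cell line started from a human squamous cell carcinoma of the tongue. By the labels, 4 knockdown libraries received si-Col1a1, an siRNA against COL1A1, and 4 control libraries received si-NC, a non-targeting siRNA. Both groups received 100 pmol siRNA with Lipofectamine 3000 and were collected 48 hours later. HSC3 is 1 line, and separate cultures are not stated for the replicates, so a p-value here reflects only the spread among these libraries.

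Keratins are the intermediate filaments of epithelial cells and assemble from pairs of a type I and a type II chain. In stratified squamous epithelium the basal layer carries KRT5, of type II, with KRT14, of type I. The stress keratins are the type II chains KRT6A, KRT6B and KRT6C and the type I chains KRT16 and KRT17, which are switched on in wounded, inflamed and hyperproliferative epidermis and are constitutive in some oral epithelium, nail bed and hair follicle. KRT75 is a type II keratin of the hair follicle companion layer and lies beside the KRT6 genes. Mutations in KRT6A, KRT6B, KRT6C, KRT16 and KRT17 cause pachyonychia congenita or related thickening of palm and sole skin.

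On GRCh38, the same assembly as the hg38 build named in the submitters' processing notes, the type II genes stand in a row on the minus strand of chromosome 12. KRT75 (ENSG00000170454.6) runs from 52424070 to 52434525, KRT6B (ENSG00000185479.6) from 52446651 to 52452126, KRT6C (ENSG00000170465.10) from 52468516 to 52473785 and KRT6A (ENSG00000205420.11) from 52487174 to 52493257. The type I genes are neighbours on the minus strand of chromosome 17, KRT16 (ENSG00000186832.9) from 41609778 to 41615899 and KRT17 (ENSG00000128422.18) from 41619441 to 41624842. All 6 are protein-coding genes, and the coordinates are those of GENCODE 29.

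The KRT6 copies have coding sequences of equal length, 1695 bases, in GENCODE 29. KRT6A and KRT6B differ at 43 of these bases, KRT6A and KRT6C at 35, and KRT6B and KRT6C at 26 (identities of 97.5%, 97.9% and 98.5%). The stretch of 90 bases with the most differences, coding bases 656 to 745 counted from the A of the start codon, shows what a read has to tell apart. It is given 5′ to 3′ on the coding strand, with the 10 positions at which the copies are not all alike in capitals.
KRT6A: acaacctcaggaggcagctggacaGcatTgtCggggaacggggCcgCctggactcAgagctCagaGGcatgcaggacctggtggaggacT
KRT6B: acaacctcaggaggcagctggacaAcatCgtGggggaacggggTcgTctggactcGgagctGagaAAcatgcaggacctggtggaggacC
KRT6C: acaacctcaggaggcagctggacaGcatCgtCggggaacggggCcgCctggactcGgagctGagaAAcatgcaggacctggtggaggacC
Elsewhere the copies are closer, and the longest run in which all 3 are identical covers coding bases 148 to 416, or 269 bases. Of all 100-base windows of the transcript, 18.2% in KRT6A, 24.6% in KRT6B and 31.7% in KRT6C also occur letter for letter in a transcript of another gene, mostly another KRT6 copy. The same share was 7.18% for KRT16, whose windows recur in KRT14 and in KRT16 pseudogenes, 0.353% for KRT17 and 0% for KRT75. How the authors' counting treated reads that fit more than 1 gene is not given in the sources used here, so the split between KRT6 copies is less certain than their sum.

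Library totals ran from 30684584 to 61795990 counts. The Wilson 95% interval of the share of a library's counts held by a member or by the KRT6 sum was at most 0.00878 percentage points on either side. This covers counting error only, and the largest was that of the KRT6 sum. COL1A1, the siRNA target, stood at 368, 123, 301 and 155 CPM (parts per 1000000 of the column total, the unit of all levels below) in knockdown replicates 1 to 4 and at 88.9, 8183, 476 and 689 CPM in control replicates 1 to 4. The groups overlapped through control 1 alone, which held less COL1A1 than any library labelled knockdown. Controls 2, 3 and 4 lay above every knockdown library. The edgeR fit described below gave COL1A1 a log2 fold change of -2.97 (SE 1.30, edgeR unadjusted p = 0.048, adjusted p = 0.981). Since the groups overlapped and the test was not passed, knockdown and control stand here for the labels only. Libraries also differed in markers of other cell types, which are not those of a squamous carcinoma line. The 14 skeletal muscle markers matched, of 15 listed, took 0.00437% to 4.72% of counts in knockdown and 0.00331% to 14.9% in control. The 13 salivary gland markers took 0.00102% to 11.0% of counts in knockdown and 0.000208% to 12.96% in control. Muscle or gland markers took over 1% of counts in 4 libraries, knockdown 2 and 4 and controls 1 and 3. The labels name no source other than HSC3, and whether these libraries hold other material, such as tissue, was not tested. The 10 squamous markers took 0.145% to 7.22% of counts in knockdown and 0.0575% to 4.10% in control. All 10 had counts except LGALS7, which was at 0 in knockdown 2 and control 1.

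The stress keratins together took 12.6%, 0.0349%, 11.2% and 1.59% of all counts in knockdown replicates 1 to 4, and 0.0115%, 2.97%, 0.150% and 3.27% in control replicates 1 to 4. Knockdown 1 and 3 were the highest, and knockdown 2 and control 1 the lowest. Of the counts of all keratin genes, the 6 members made 59.3%, 12.2%, 67.4% and 14.8% in knockdown and 8.38%, 45.7%, 7.31% and 60.9% in control. In bulk RNA, fewer cells of a type and less RNA per cell cannot be told apart.

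KRT6A, the type II chain usually taken as the main KRT6 copy, stood at 42475, 67.6, 37562 and 9222 CPM in knockdown and at 10.4, 16359, 691 and 10255 CPM in control. KRT6B stood at 29492, 44.2, 27337 and 1365 CPM in knockdown and at 42.1, 2855, 138 and 2458 CPM in control. KRT6C, the copy described last, stood at 19757, 14.2, 14572 and 2273 CPM in knockdown and at 1.90, 1763, 568 and 2405 CPM in control. For each copy knockdown 1 and 3 lay above all 4 control libraries, while knockdown 2 and 4 lay within the control range, so the groups overlapped. Summed over the copies, KRT6 stood at 91724, 125.9, 79472 and 12861 CPM in knockdown and at 54.4, 20977, 1397 and 15118 CPM in control. Its highest library was 1686-fold above its lowest.

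KRT16, the type I chain that pairs with KRT6, stood at 24973, 35.9, 23620 and 2692 CPM in knockdown and at 3.62, 7606, 79.4 and 7487 CPM in control. From high to low, the 8 libraries stood in the same order for KRT16 as for the KRT6 sum, with knockdown 1 first and control 1 last. KRT17, a type I chain that is also made by basal and myoepithelial cells of glands, stood at 8795, 187, 8752 and 319 CPM in knockdown and at 56.6, 1146, 23.7 and 10097 CPM in control. Its order was another one, with control 4 first and control 3 last. KRT75 was low throughout, at 101, 0.0652, 384 and 4.41 CPM in knockdown and at 0, 6.41, 0.124 and 43.0 CPM in control. In control 1 it had no count, which allows up to 0.0816 CPM (3 counts), and knockdown 2 held 2 counts. The antisense gene that overlaps KRT75 had at most 45 counts in any library, against 13998 counts of KRT75 in the library that held the most. Without a stated strand setting these reads cannot be told apart.

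**Figure D1:**
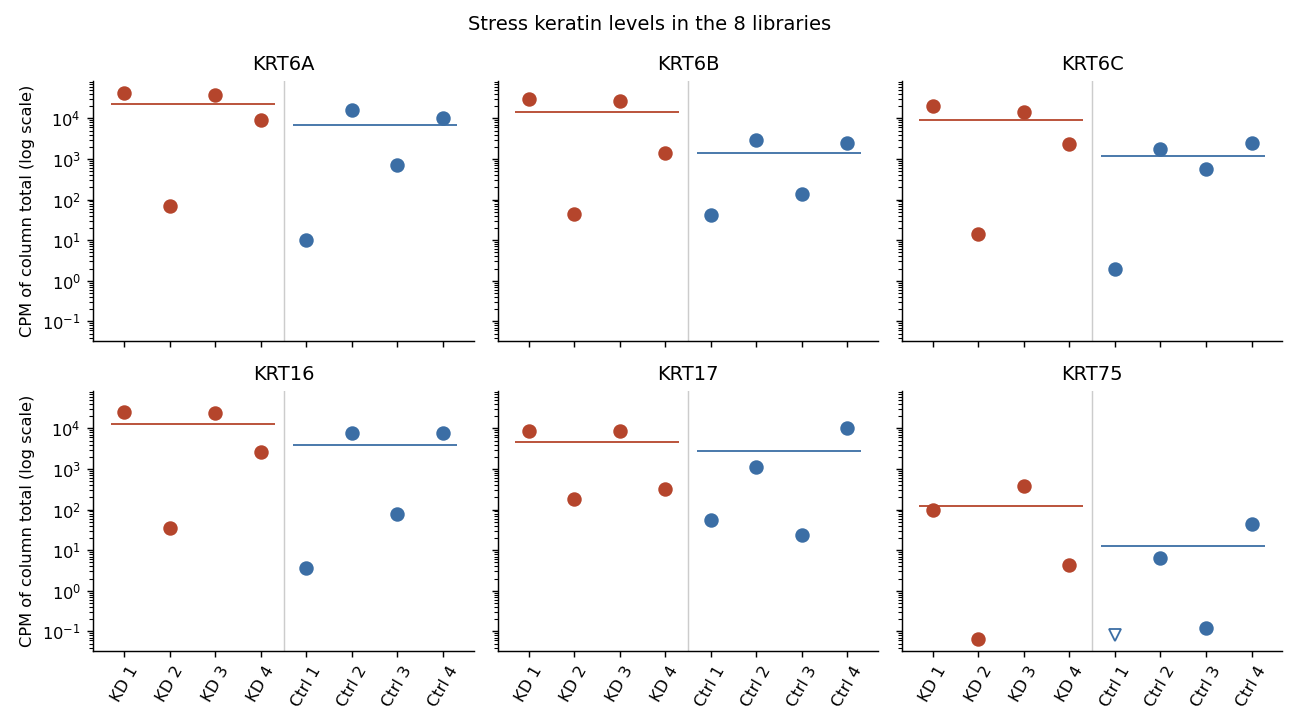
Level of each stress keratin in each library, in CPM of the column total on a log axis, for 4 knockdown libraries (KD, red) and 4 control libraries (Ctrl, blue); horizontal lines are group means, and the open triangle marks a count of 0, drawn at the level of 3 counts. For KRT6A, KRT6B, KRT6C and KRT16, KD 1 and KD 3 are the highest and KD 2 and Ctrl 1 the lowest, while KRT17 is highest in Ctrl 4 at 10097 CPM.

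Levels of different genes were compared per kilobase of the main coding transcript. KRT6A averaged 9667 ± 9030 CPM per kb in knockdown and 2956 ± 3415 in control (SD of 4 libraries each). KRT16 averaged 7804 ± 8088 CPM per kb in knockdown and 2308 ± 2636 in control, KRT6B 6380 ± 7025 in knockdown and 602 ± 653 in control, and KRT6C 3999 ± 4165 in knockdown and 517 ± 479 in control. KRT17 averaged 2975 ± 3243 CPM per kb in knockdown and 1866 ± 3212 in control, and KRT75 52.6 ± 77.7 in knockdown and 5.33 ± 8.88 in control. The order of these means is a description. In knockdown each step between neighbours from KRT6A to KRT17 was smaller than either SD. In control KRT17 stood above KRT6B and KRT6C, and the step from KRT17 to KRT6B was larger than the SD of KRT6B but smaller than that of KRT17. Within single libraries KRT6A had the highest level per kilobase in knockdown 1, 3 and 4 and controls 2 and 3. KRT17 had the highest in knockdown 2 and controls 1 and 4, at 123, 37.3 and 6656 CPM per kb. KRT75 was the lowest in every library.

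Between the labels, all 6 stress keratins were fitted higher in knockdown and none passed the test. KRT6B had the largest log2 fold change, 3.85 (SE 2.09), followed by KRT75 at 3.79 (SE 2.45), KRT6C at 3.38 (SE 2.08), KRT16 at 2.19 (SE 2.21), KRT6A at 2.13 (SE 2.14) and KRT17 at 1.10 (SE 1.91). As 1 feature, the KRT6 sum had a log2 fold change of 2.72 (SE 2.25, 95% interval -2.39 to 7.83, edgeR adjusted p = 0.981). The edgeR quasi-likelihood test, with Benjamini-Hochberg adjustment over the 21192 genes tested and a threshold of 0.05, gave an adjusted p of 0.995 for KRT17 and 0.981 for each of the other members. It called 0 of the 6 members and 0% of all genes. At an unadjusted p under 0.05 stood 0 members and 4.78% of all genes, and DESeq2 called 0 members and 0.606% of the genes it tested. Fitted above 0 were 6 of 6 members, against 46.8% of all genes, and 5 of 6 had a log2 fold change of at least 2, against 2.59%. The 2 groups overlapped for all 6 members, where 2.35% of all genes had groups that did not overlap. Markers of other cell types differed in the same fit. All 14 skeletal muscle markers were fitted lower in knockdown (median log2 fold change -1.98, 0 called), as were all 7 fibroblast markers (median -1.71, 0 called, 3 at an unadjusted p under 0.05), and 8 of 10 squamous markers were fitted higher (median 0.86, 0 called). The fibroblast markers summed to 330 to 881 CPM in knockdown and to 738 to 10743 CPM in control, with the highest value in control 2. The part of these cell types in the stress keratin levels was not tested.

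In the main edgeR fit the 95% interval of the log2 fold change crossed 0 for every member. Each edgeR SE and interval was worked back from the test statistic, so crossing 0 only restates an unadjusted p above 0.05. The interval ran from -2.72 to 6.97 for KRT6A, -0.90 to 8.60 for KRT6B and -1.34 to 8.10 for KRT6C. For KRT16 it ran from -2.83 to 7.21, for KRT17 from -3.22 to 5.42 and for KRT75 from -1.77 to 9.35. In DESeq2 the intervals of KRT6B (0.92 to 6.81) and KRT6C (0.32 to 6.45) lay above 0. Their DESeq2 adjusted p was 0.393 and 0.616, and the intervals of the other members crossed 0. DESeq2 put 1972 of the 46022 genes it fitted at an unadjusted p under 0.05. With each library left out in turn, the edgeR log2 fold change of every member stayed above 0. Without knockdown 2 the interval of KRT6B was 0.11 to 8.40 (edgeR adjusted p = 0.635). KRT17 ran from 0.46 without knockdown 3 to 3.90 without control 4, the library that held the most KRT17. KRT75 ran from 1.84 without knockdown 3 to 6.30 without control 4. Without the 4 libraries in which muscle or gland markers took over 1% of counts, 2 knockdown and 2 control libraries remained. There the log2 fold change was 3.88 for KRT6B (SE 0.66), 3.48 for KRT6C (SE 0.63), 2.71 for the KRT6 sum (SE 0.78) and 2.15 for KRT16 (SE 0.61), with edgeR adjusted p of 0.246, 0.263, 0.363 and 0.36 and 0 genes called. At an unadjusted p under 0.05 stood 5 of 6 members, KRT17 being the other, and 2366 of the 22260 genes of that fit. These log2 fold changes were close to those of all 8 libraries, with smaller standard errors, and the test was still not passed. The libraries left, knockdown 1 and 3 and controls 2 and 4, held the most KRT6 and KRT16 within their label. Such libraries largely set the group means of all 8, so the closeness is no sign of stability.

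**Figure D2:**
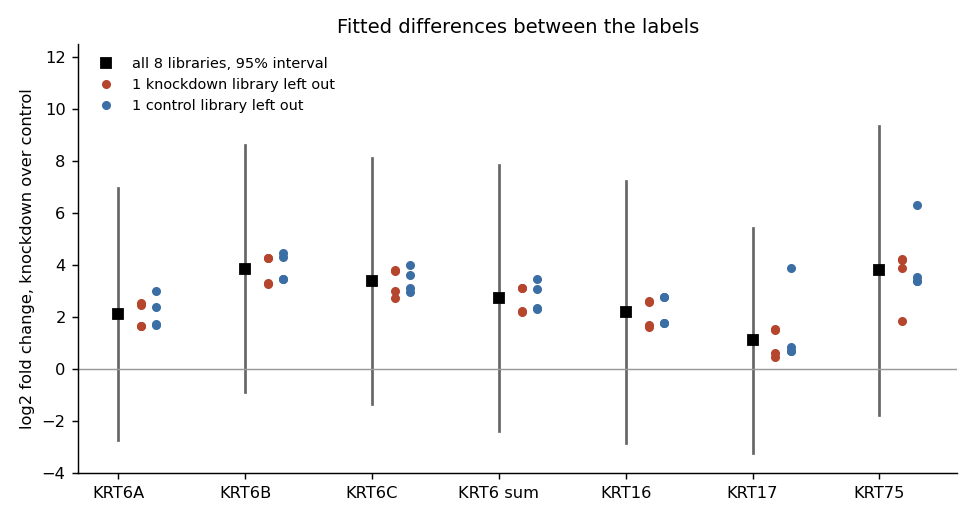
Log2 fold change, knockdown over control, of each stress keratin and of the KRT6 sum, from edgeR. Squares with lines give the fit of all 8 libraries with its 95% interval, and dots the fits without 1 knockdown library (red) or 1 control library (blue); every interval crosses 0, and KRT17 and KRT75 move most, to 3.90 and 6.30 without control 4.

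The KRT6 copies did not keep a fixed balance. KRT6B made 32.2%, 35.1%, 34.4% and 10.6% of the summed KRT6 counts in knockdown replicates 1 to 4 and 77.4%, 13.6%, 9.86% and 16.3% in control replicates 1 to 4. It was the largest part in control 1 only, where the sum was 2001 counts (Wilson 95% interval 75.5% to 79.2%). KRT6A made 46.3%, 53.6%, 47.3% and 71.7% in knockdown and 19.1%, 78.0%, 49.5% and 67.8% in control, and was the largest part in the other 7 libraries. KRT6C was the smallest part in knockdown 1, 2 and 3 and controls 1, 2 and 4, with 3.50% in control 1, but made 40.7% in control 3. The log2 ratio of KRT6B to KRT6A averaged -1.09 ± 1.11 in knockdown and -1.24 ± 2.12 in control (SD of 4 libraries each), a difference of 0.16 (exact two-sided permutation p = 1, adjusted p = 1 over the 6 ratios tested). Its sign turned when any of 6 libraries was left out.

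**Figure D3:**
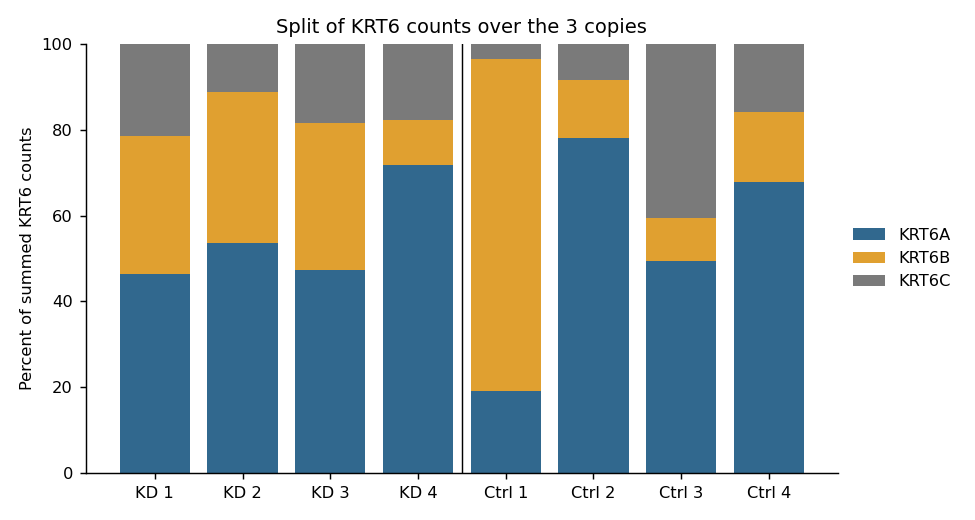
Percent of the summed KRT6 counts assigned to KRT6A (blue), KRT6B (orange) and KRT6C (grey) in each knockdown (KD) and control (Ctrl) library. KRT6B takes 77.4% in Ctrl 1 and KRT6C 40.7% in Ctrl 3, and KRT6A is the largest part in every library but Ctrl 1.

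KRT16 and its partner KRT6 stayed in a similar proportion in the 4 knockdown libraries. KRT16 stood at 0.272, 0.285, 0.297 and 0.209 of the KRT6 sum (a ratio of CPM) in knockdown and at 0.0665, 0.363, 0.0569 and 0.495 in control. All 4 knockdown values lay inside the control range. Controls 1 and 3, the lowest, were the libraries with the most muscle marker counts, 14.9% each. Muscle markers also took 3.82% of counts in knockdown 2 and 4.72% in knockdown 4, at ratios of 0.285 and 0.209. Control 1 also held 12.96% gland markers and only 133 counts of KRT16. The part of other cell types in this ratio was not tested. The log2 ratio, with 1 CPM added to both levels, averaged -1.92 ± 0.23 in knockdown and -2.55 ± 1.54 in control (SD of 4 libraries each). The difference of 0.63 had an exact two-sided permutation p of 0.429 (adjusted p = 0.96 over 6 ratios), where the smallest p the design allows is 0.0286. It was 0.10 without control 3. A test of the difference in spread was not made.

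KRT17 varied widely relative to KRT16. The KRT17 level was 0.352, 5.20, 0.371 and 0.118 times that of KRT16 in knockdown and 15.6, 0.151, 0.298 and 1.35 times in control, a 132-fold range over the libraries. KRT17 was above KRT16 in 3 libraries, knockdown 2 and controls 1 and 4. The 6 myoepithelial and smooth muscle markers summed to 1890, 1410 and 631 CPM in these 3 libraries, and to at most 131 CPM in knockdown 1, 3 and 4 and at most 235 CPM in controls 2 and 3. In control 4 the sum was mostly 1 gene, the myosin kinase MYLK at 541 CPM. The other 5 markers there (ACTA2, MYH11, CNN1, TAGLN and LMOD1) were no higher than in control 2, where KRT17 was below KRT16. Gland markers took 11.0% of counts in knockdown 2 and 12.96% in control 1, but 0.000208% in control 4. The part of these cells in the KRT17 level was not tested. The log2 ratio of KRT17 to KRT16 averaged -0.92 ± 2.30 in knockdown and -0.09 ± 2.81 in control (SD of 4 libraries each), and the difference of -0.83 had an exact two-sided permutation p of 0.657 (adjusted p = 0.96). It was 0.42 without control 1.

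Of the 6 ratios tested, the KRT6 sum over the basal keratin KRT5 came nearest to a separation of the labels. KRT6 was not compared with KRT14, another basal keratin, so this holds for KRT5 only. The KRT6 sum was 4.64, 0.459, 6.91 and 2.20 times KRT5 in knockdown and 0.50, 1.25, 0.239 and 1.07 times KRT5 in control. Knockdown 1, 3 and 4 lay above all control libraries, and knockdown 2 lay below 3 of them. KRT5 itself averaged 9350 ± 8324 CPM in knockdown and 9231 ± 7671 CPM in control (SD of 4 libraries each), and the edgeR fit put it at 0.41 on the log2 scale (SE 1.55, adjusted p = 0.997). The log2 ratio averaged 1.26 ± 1.72 in knockdown and -0.66 ± 1.10 in control, and the difference of 1.91 had an exact two-sided permutation p of 0.143 (adjusted p = 0.857). With knockdown 2 left out the difference was 2.71, and it was 1.40 with knockdown 3 left out.

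For the type I chains KRT16 and KRT17 the basal counterpart is KRT14, also of type I, at 16281 ± 16660 CPM in knockdown and 4540 ± 5576 CPM in control (SD of 4 libraries each; log2 fold change 2.28, SE 1.68, edgeR adjusted p = 0.981). KRT16 was 0.771, 0.0676, 0.819 and 0.803 times KRT14 in knockdown and 0.0129, 0.609, 0.0711 and 1.76 times in control. Knockdown 1, 3 and 4 were alike, and knockdown 2 stood with controls 1 and 3 at under 0.1. The log2 ratio differed by 1.20 between the labels (-1.21 ± 1.76 in knockdown and -2.41 ± 3.03 in control, exact two-sided permutation p = 0.543, adjusted p = 0.96), and by 0.03 without control 1. KRT17 was 0.272, 0.351, 0.303 and 0.0951 times KRT14 in knockdown and 0.201, 0.0917, 0.0212 and 2.37 times in control. Its log2 ratio averaged -2.12 ± 0.86 in knockdown and -2.50 ± 2.83 in control, a difference of 0.38 (exact two-sided permutation p = 0.8, adjusted p = 0.96), which was -0.63 without control 3. In control 4, KRT17 was above both KRT16 and KRT14.

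**Figure D4:**
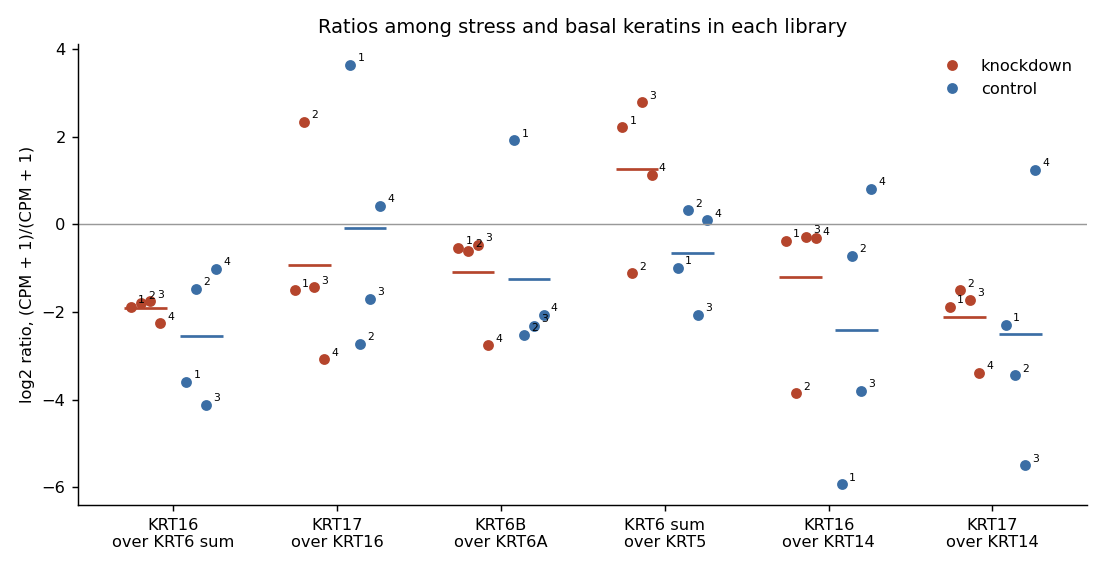
Log2 ratio of CPM (1 CPM added to both genes) for 6 pairs of stress and basal keratins, with a dot for each knockdown (red) and control (blue) library, its replicate number beside it, and a line at the group mean. Groups overlap for all 6 ratios; the KRT6 sum over KRT5 shows the largest difference, 1.91, and KRT17 over KRT16 is above 0 in knockdown 2 and controls 1 and 4.

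Other keratins were read beside the stress keratins from lists, with no test of the list. Of the 3 basal keratins, 2 were fitted higher and 1 lower in knockdown, with a median log2 fold change of 0.41, where all genes tested had a median of -0.05. All 9 tested suprabasal keratins, of 10 listed, were fitted higher, with a median of 5.89, 0 called and 6 at an unadjusted p under 0.05, where 46.8% of all genes were fitted higher and 4.78% were at such a p. KRT4, the type II chain of non-keratinised oral mucosa, stood at 11999, 4.79, 285 and 45264 CPM in knockdown and at 17.6, 290, 4730 and 405 CPM in control. KRT13, its type I partner, stood at 12808, 17.7, 1080 and 28768 CPM in knockdown and at 14.5, 4744, 5252 and 830 CPM in control. Both were highest in knockdown 4, second highest in knockdown 1, and lowest in knockdown 2 and control 1, the libraries that were also lowest in stress keratins. The next most abundant on the list, KRT1 and KRT10, did not peak there. KRT1 was highest in knockdown 1 (6424 CPM) and KRT10 in knockdown 3 (7933 CPM), and in knockdown 4 they stood at 105 and 56.7 CPM. KRT4 had a log2 fold change of 3.64 (SE 2.33) and KRT13 of 2.21 (SE 1.94), both with an edgeR adjusted p of 0.981.

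Of the 6 simple epithelial keratins, 5 were tested, 3 fitted higher and 2 lower (median 0.27, 0 called). KRT19, the smallest keratin and one of simple and basal oral epithelium, had a log2 fold change of -0.13 (SE 1.07), and KRT7, a type II chain of ducts, 0.27 (SE 1.85), with edgeR adjusted p of 0.998 for both. The hair and follicle keratins, among which KRT75 would belong by its usual site, had 6 of 21 tested, 4 fitted higher and 2 lower (median 0.60, 0 called). Their summed level was 11.3, 6.78, 42.2 and 3625 CPM in knockdown and 6.90, 6.97, 26.3 and 11.5 CPM in control. Nearly all of it in knockdown 4 came from KRT84 at 1850 CPM and KRT36 at 1637 CPM, a type II and a type I hard keratin known from the filiform papillae of the tongue. Both were removed by the filter, KRT84 stood at most at 33.9 CPM in any other library, and KRT36 at most at 2.14 CPM. KRT75 did not share this pattern, since it stood at 4.41 CPM in knockdown 4.

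The inflammatory and hyperproliferative keratinocyte list holds genes that accompany KRT6, KRT16 and KRT17 in psoriatic and wounded skin. Of 19 tested members, 16 were fitted higher and 3 lower in knockdown, with a median of 3.30, 0 called and 8 at an unadjusted p under 0.05, against 46.8% fitted higher and 4.78% at such a p among all genes. S100A8 and S100A9, the paired calgranulin subunits, were fitted higher by 3.18 (SE 1.82) and 3.30 (SE 1.82) on the log2 scale, each with an edgeR adjusted p of 0.981. S100A8 stood at 5997, 29.3, 9492 and 6740 CPM in knockdown and at 6.42, 1686, 1512 and 79.7 CPM in control. The summed list was low in control 4, at 801 CPM, although that library held 10097 CPM of KRT17 and 15118 CPM of KRT6.

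Among signals that induce stress keratins, EGFR ligands had 5 of 7 fitted higher and 2 lower (median 1.02, 0 called). EPGN, the ligand epigen, had a log2 fold change of 3.44 (SE 1.79) and TGFA 1.23 (SE 0.96). Of 10 upstream receptors 7 were fitted higher and 3 lower (median 0.32, 0 called), with EGFR at -1.37 (SE 1.52) and the TNF receptor TNFRSF1A at 0.14 (SE 0.55). EGFR stood at 2783, 199.6, 334 and 451 CPM in knockdown and at 115, 396, 453 and 11162 CPM in control, so its highest library was control 4, as for KRT17. Of 19 upstream transcription factors 11 were fitted higher and 8 lower (median 0.12, 0 called), with the AP-1 members FOS at -1.25 (SE 1.34) and FOSL2 at 0.54 (SE 0.68). Of 14 keratin-binding and keratin-anchoring proteins 9 were fitted higher and 5 lower (median 1.40, 0 called). DSP, which ties keratin filaments to desmosomes, was at 1.46 (SE 1.30), and its plakophilin partner PKP1 at 1.34 (SE 1.52). The edgeR adjusted p was between 0.981 and 0.997 for each of these 8 genes. Of 18 rows of near-copy pseudogenes 5 were tested, all fitted higher (median 1.66, 0 called), and KRT16 pseudogenes together held from 0% to 3.01% of the KRT16 count.

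**Figure D5:**
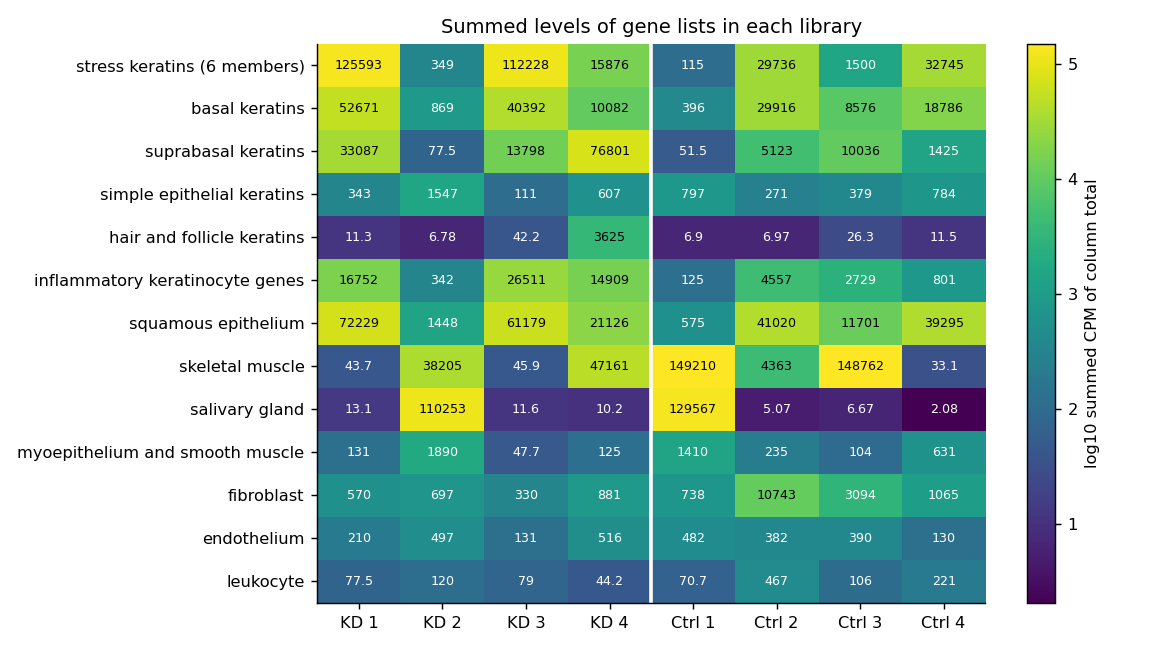
Summed CPM of the 6 stress keratins and of 12 gene lists in each knockdown (KD) and control (Ctrl) library, with the value printed in each cell and the colour on a log10 scale. Stress, basal and squamous rows are low in KD 2 and Ctrl 1, where salivary gland markers are high, and hair and follicle keratins are high in KD 4 alone, at 3625 CPM.

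The genes most like the stress keratins across the 8 libraries were ranked by Pearson's r of log2(CPM + 1) among 10063 genes, as a description without a test, since the genes share each library, its total and its cell content. Nearest to the KRT6 sum were GJB2 (r = 0.996), the gap junction protein connexin 26, then PGM2 (r = 0.988), MINK1 (0.987), FABP5 (0.986), a fatty acid binding protein of epidermis, and PKP3 (0.984), a desmosomal plakophilin. GJB2 stood at 2247, 23.9, 3412 and 828 CPM in knockdown and at 15.98, 1179, 123 and 806 CPM in control. Nearest to KRT16 were FAM83H (r = 0.990), a protein that binds keratin filaments, KLK8 (0.988), a kallikrein protease of epidermis, NAA20 (0.987), RANGAP1 (0.986) and PGAM1 (0.986), a glycolytic enzyme. FAM83H stood at 402, 47.0, 372 and 257 CPM in knockdown and at 26.5, 385, 73.3 and 355 CPM in control. Nearest to KRT17 were RCE1 (r = 0.971), STX10 (0.964), DOCK6 (0.963), PEF1 (0.958) and SMG5 (0.957), none of which was in the other 2 sets. RCE1 spanned little, between 8.39 and 15.7 CPM in knockdown and between 6.39 and 14.0 CPM in control. None of the 15 genes passed the edgeR test (adjusted p between 0.981 and 0.995).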

How the data were processed

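The authors deposited whole-number read counts per gene for 8 libraries, and the submitters' processing notes name hg38, STAR, Subread and featureCounts. Their versions, the annotation, the strand setting and the handling of multi-mapping reads were not given in the sources used. Per the labels, the molecule is polyA RNA, but the protocol removes ribosomal RNA. Columns were matched to libraries by group and number (the headers say knockout where titles say knockdown). Symbols were matched for 62666 of 63241 rows. Levels are CPM of column totals. The 2 labels were compared in edgeR 4.0.16 under R 4.3.3 (TMM, filterByExpr, quasi-likelihood, intercept and group). The fit was also run on simulated counts with far less spread between libraries, which cannot show how the test behaves on these data. TMM factors ran from 0.75 to 1.19. Ratios used exact permutation tests over 70 assignments (scipy 1.17.1). Alternatives were DESeq2 1.42.0, limma-voom 3.58.1, other scaling, filters and pseudocounts, a replicate block, pseudogene counts and libraries left out. No batch is named in the labels. The members and lists were chosen with earlier results of these data known. Named genes were the members, KRT5, KRT14, COL1A1, the 2 most abundant of each list and the 5 most similar genes with a mean log2(CPM + 1) of at least 3. KRT1 and KRT10 were added later from the suprabasal list. Transcripts and coordinates are from GENCODE 29.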

Additional observations from a re-analysis of the deposited data

Results flagged for a closer look

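In groups of 4 libraries, a library was singled out where its distance from the nearest other exceeded 0.829 of the group's range (Dixon's 95% value). This was done in 32 groups of values, and 7 values were singled out, of which several share a library or a count. Chance alone gives about 1 in 20 only for normally distributed values. CPM levels were taken without a log and span orders of magnitude, so that rate does not hold for them. KRT17 in control 4 was 10097 CPM, with the next control library at 1146 CPM. KRT75 in control 4 was 43.0 CPM, with the next at 6.41 CPM. The log2 ratio of KRT6B to KRT6A was 1.92 in control 1, where the other controls lay between -2.52 and -2.06, and KRT6B was 77.4% of KRT6 counts there, against 9.86% to 16.3%. In knockdown 4 the same log2 ratio was -2.76, where the other knockdown libraries lay between -0.60 and -0.46, and KRT6B was 10.6% of KRT6 counts, against 32.2% to 35.1%. The log2 ratio of KRT16 to KRT14 was -3.85 in knockdown 2, where the other knockdown libraries lay between -0.38 and -0.29.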

How the results depend on the processing

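Of 199 recomputed values, 189 were labelled unchanged. For a log2 fold change or ratio this means the same direction and side of the threshold, and for a number of genes called the same number. The ratios could hardly cross the threshold, since with 4 against 4 libraries the smallest exact p is 0.0286 before adjustment over 6 ratios. With 1 library left out the two-sided p doubles the smaller tail and cannot fall under 0.05, even unadjusted. An unchanged side of the threshold therefore says little for the ratios, and nothing for those with a library left out. The number of genes called was 0 in the main test and under all alternatives but DESeq2, which called 148, and the fit without knockdown 2, which called 1; with each library left out it ran from 0 to 1. All member log2 fold changes stayed above 0 and unpassed. Leaving out single libraries gave 1.64 to 3.01 (KRT6A), 3.26 to 4.47 (KRT6B), 2.73 to 4.01 (KRT6C), 1.62 to 2.76 (KRT16), 0.46 to 3.90 (KRT17), 1.84 to 6.30 (KRT75) and 2.19 to 3.47 (KRT6 sum). Log2 ratio differences ran from 0.10 to 1.14 (KRT16 over KRT6), -1.91 to 0.42 (KRT17 over KRT16), -0.27 to 1.21 (KRT6B over KRT6A), 1.40 to 2.71 (KRT6 over KRT5), 0.03 to 2.28 (KRT16 over KRT14) and -0.63 to 1.62 (KRT17 over KRT14). Turned signs were 0.42 for KRT17 over KRT16 without control 1, -0.63 for KRT17 over KRT14 without control 3, and for KRT6B over KRT6A -0.0277, -0.0027 and -0.0504 without knockdown 1, 2 and 3 and -0.27, -0.20 and -0.11 without control 2, 3 and 4. The cause was not tested. Scaling by library totals moved the median of all genes to -0.21 and KRT17 to 0.67.

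With the replicate block the log2 fold changes were 3.14, 3.47, 2.65, 3.68, 2.29 and 3.54 for KRT6A, KRT6B, KRT6C, KRT16, KRT17 and KRT75, 3.11 for the KRT6 sum, and 0 genes were called. Same-numbered libraries deviated in opposite directions (correlations -0.69, -0.47, -0.37 and -0.36 over 21192 genes), so the numbers do not join libraries of like content. These correlations cannot show whether same-numbered libraries were prepared together. For the ratios, 4 pairs cannot give an exact p below 0.125. KRT75 could not be tested where 10 counts were asked of every library. Depth limits KRT75 in control 1 and knockdown 2, and the KRT6 split in control 1.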
